A study of Drosophila melanogaster with 2 samples.

Results

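Distal coding peaks are peaks of CG33017-GFP chromatin whose summit lay inside protein-coding sequence and away from any promoter. The peak list of the pooled replicates was taken, and a peak was kept when its summit was in annotated coding sequence (CDS) of the Ensembl BDGP6 annotation, in no 5' UTR and over 500 bp from every annotated transcription start site (TSS). This gave 1330 distal coding peaks of 30000 pooled peaks, and the other 28670 pooled peaks served as their comparison. No peak height entered the choice. The measurements came from chromatin immunoprecipitation followed by sequencing (ChIP-seq), with an anti-GFP antibody per the description of the samples, on whole adult male Drosophila melanogaster. All animals belonged to 1 transgenic line that stably carries CG33017 fused to GFP at its C-terminus, their age is given as unknown, and the labels number 2 biological replicates of this single group. The antibody field of the labels reads CG33017, no promoter of the transgene is named, and no flies without the tag were analysed here. Every tissue of the fly contributed chromatin, so the cell types behind a peak cannot be told apart. Peaks were deposited for each replicate (30000 each), for the pooled replicates, and for a set of 4867 kept by irreproducible discovery rate (IDR), a measure of whether peaks rank alike in replicates. The read depth behind these lists is unknown.

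As background, sequence-specific transcription factors in flies are mostly mapped to promoters and to enhancers in introns and between genes. Coding exons carry sequence under selection for protein, are richer in G and C than introns, and can also hold regulatory elements. A ChIP-seq peak marks where fragments of precipitated DNA pile up, which can include places where the tagged protein is held by other proteins, and a coding peak therefore names a place and not a mode of binding.

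The sequences under the summits show the base composition of these peaks beside that of the highest peaks of the list. The first 6 windows are 6 of the 9 distal coding peaks of the IDR list, in order of signal. The peaks in otp, CG10357 and bin3, which rank 3, 7 and 9 among distal coding peaks, are not shown, and the last 3 are among the highest of the other pooled peaks, named by the gene with the nearest TSS. Each window is 30 bases of the genome's plus strand (Release 6, dm6 coordinates), read 5' to 3', with the deposited summit base in capitals. The summit of each distal coding peak was the midpoint of its interval, so the capital marks a centre and not a resolved contact.
Exn, chr3L:16981420-16981449: cagccgcagataagGttgcaaaagtggcaa
Socs36E, chr2L:18141743-18141772: cctggcttgctgctGtgttgcgttcccgcc
Kcmf1, chr3R:9011926-9011955: cagccgatcgatttGgcgcgatgcctaaaa
eIF2Balpha, chr3R:29934694-29934723: gcgtatagtcgaccAgcgggtgcactttgc
CG6678, chr3R:21888832-21888861: cttgcagataactcAaattgctgccggtgg
CG31710, chr2L:9703141-9703170: ttgctccggactggGctttatctcgacatt
Other peak by CG11050, chr2L:6612696-6612725: aaaattaatacaagAttagattttgtattg
Other peak by CG14100, chr3L:19590596-19590625: aactctaagcaaatGaatttttgcgataca
Other peak by CG11309, chr3L:21304556-21304585: gacttaaatcatcaGcctttgatttcataa
The 6 coding windows held 50% to 66.7% G and C, while the 3 others held 16.7%, 30% and 30%. Over all peaks, within 50 bp of the summit, GC averaged 52.4% in distal coding peaks and 39.3% in the other pooled peaks, with 35.7% in the IDR list. The GC of distal coding peaks was close to that of distal coding sequence itself, which averaged 52.7% over 91869 positions taken at every 200th such base. In the separate replicate lists the mean over distal coding peaks was 52.2% ± 0.536 (SD, n = 2), against 39.4% ± 0.407 at the other summits. No test was made of the difference from the other peaks. Around the summit the profiles ran together, with 53.3% at the centre in both distal coding peaks and distal coding positions. At 500 bp upstream on the plus strand GC was 45.4% in distal coding peaks and 47.2% around distal coding positions, where 56.2% and 65.4% of the bases were CDS.

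Short motifs were counted on both strands within 50 bp of each summit, and each share of distal coding peaks is given with the share at distal coding positions and then at the other pooled summits. The GAGA element (GAGAG), bound by GAGA factor, was present in 10.98% of distal coding peaks (95% Clopper-Pearson interval 9.35 to 12.8), in 12.3% of positions and in 13.3% of other peaks. A TATA box (TATAAA) was present in 2.63% of distal coding peaks, 2.69% of positions and 15.9% of other peaks. The CAG repeat (CAGCAGCAG), common in exons that encode glutamine runs, was present in 2.93%, 2.83% and 0.642% in the same order. The CA repeat (CACACACA) was present in 0.226%, 0.229% and 3.13%. The E-box (CACGTG) was present in 0.827% (0.414 to 1.48) of distal coding peaks, 1.52% of positions and 1.18% of other peaks. Within 100 bp the E-box share was 1.88% (1.22 to 2.76) in distal coding peaks and 3.01% at positions, so it was under that of coding sequence with either window. The DNA replication-related element (TATCGATA), found at many promoters of housekeeping genes, was in 0 of the 1330, which at 3 counts of the total allows a share of up to 0.226% (the Clopper-Pearson upper bound is 0.277%), and in 0.0838% of positions and 1.11% of other peaks. For the TATA box and both repeats, distal coding peaks had intervals that included the share at coding positions and not the share of the other peaks, within 50 bp and within 100 bp. The CA repeat within 100 bp was in 1.05% (0.577 to 1.76) of distal coding peaks, 0.588% of positions and 6.42% of other peaks. There the share of positions was just above the lower bound. The GAGA element did not separate them at both widths: within 100 bp it was in 22.6% (20.4 to 24.98) of distal coding peaks, 23.1% of positions and 24.95% of other peaks. The highest distal coding peaks with an E-box and with a CAG repeat lay in Lk6 and ari-1, and both windows are shown with the motif in capitals.
Lk6, chr3R:11756100-11756129: cttcgcgaaagaCACGTGcacgcgcatgcc
ari-1, chrX:18136435-18136464: gccataccttCAGCAGCAGattggcttcgt
A match describes these letters and shows no binding at them.

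Distal coding sequence held far fewer summits than its length would give. It took up 13.7% of the bases of the 6 main chromosome arms, whereas 4.43% of pooled summits fell in it (95% interval 4.20 to 4.67), 3.10-fold fewer (exact two-sided binomial test, p below 1e-300). The replicate lists gave the same direction with different sizes. In replicate 1, 1069 summits (3.56%) were distal coding, and in replicate 2, 2073 (6.91%), a mean of 5.24% ± 2.37 (SD, n = 2). Relative to the share of bases these were ratios of 0.260 in replicate 1 and 0.504 in replicate 2, around the 0.323 of the pooled list. Replicate 2 alone thus held 1.94 times as many distal coding peaks as replicate 1, and leaving out replicate 1 moved the ratio by over 1.5 times. In the IDR list 9 of 4867 summits (0.185%) were distal coding, 74.2-fold fewer than the bases would give (p = 6.08e-292 in the same exact test). These 9 ranked 2347 to 4369 in the pooled list, and the next distal coding peak ranked 5071. The 4867 strongest pooled peaks thus held the same 9, so the IDR share is not separate from the order by signal. These p-values set peaks against positions and do not measure variation between animals.

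The share of distal coding summits climbed as the signal fell. The signal is the authors' value for each peak, on a scale not given in the sources used here, and it was used to order peaks within a list. Among the 3000 pooled peaks of highest signal 1 was distal coding (0.0333%), and the next groups of 3000 held 0.367%, 0.767%, 1.03%, 1.97%, 3.40%, 6.30%, 7.93%, 10.8% and 11.7%. The last of these, with an interval of 10.6 to 12.9, was still under the 13.7% of bases. In replicate 1 the 3000 peaks of lowest signal held 8.50% (7.53 to 9.56), and in replicate 2 they held 14.7% (13.4 to 16.0), an interval that includes the share of bases. Of the 1330 distal coding peaks, 125 were among the 15000 strongest pooled peaks and 1205 among the rest.

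**Figure D1:**
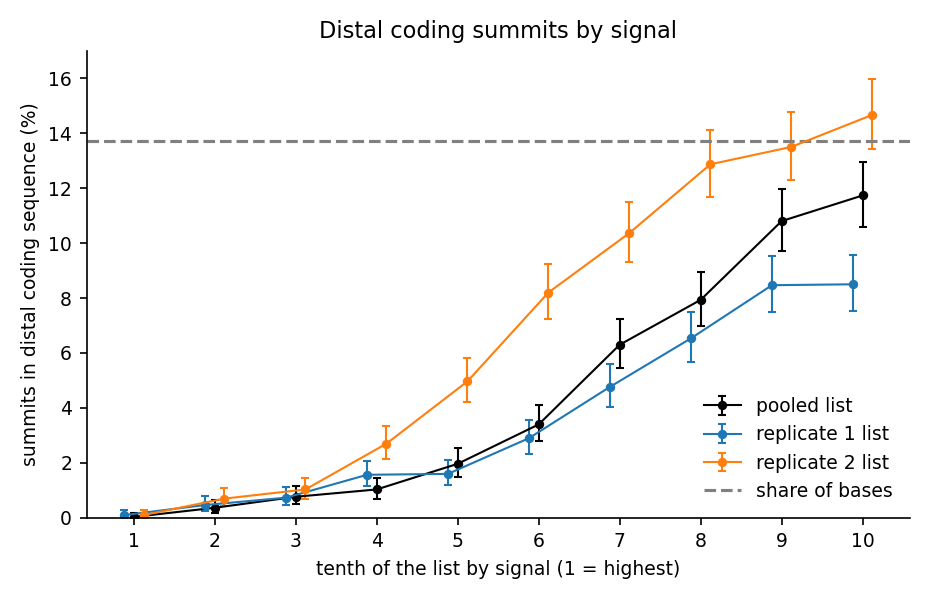
Share of summits in distal coding sequence (y axis, percent) in 10 groups of 3000 peaks ordered by signal from highest to lowest (x axis), for the pooled list and each replicate list, with 95% Clopper-Pearson bars and the 13.7% share of bases as a dashed line. All 3 lists climb from at most 0.1% to between 8.50% and 14.7%, and replicate 2 reaches the line.

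Most distal coding peaks were low. Their median signal was 27.8 (range 23.2 to 169.5), against 44.2 in the other pooled peaks, whose highest was 3404. Of distal coding peaks, 80.0% had a signal under 1.5 times the lowest in the list, compared with 35.5% of the others. The deposited −log10 q-value had a median of 0.777 in distal coding peaks and 1.79 in the others, and 10 distal coding peaks (0.752%) were at its highest value, against 19.3% of the others. Even the upper quartile of distal coding peaks, 1.07, fell short of a q-value of 0.05, which the median of the others passed. The lowest value in distal coding peaks was 0.528. All 1330 were 404 bp wide with the summit at the midpoint, which was so for 93.8% of the others. The 500 bp limit crossed no step in signal. The 77 coding peaks at 501 to 600 bp from a TSS had a median of 29.8 and the 59 at 401 to 500 bp had a median of 29.4. Nearest to the limit, peaks in Spt-I (501 bp, signal 36.8), CG14926 (502 bp, 23.7) and Cyp6a23 (502 bp, 31.6) were kept, and peaks in Nhe3 (499 bp, 51.0), RabX4 (494 bp, 27.0) and polybromo (492 bp, 28.3) were not.

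Only 9 of the 1330 distal coding peaks (0.677%, interval 0.310 to 1.28) were in the IDR list, which held 16.2% of all pooled peaks. They were the 9 strongest distal coding peaks. The first lay in exon 2 of Exn (chr3L:16981232-16981635), at a signal of 169.5 and rank 2347 of the pooled list. Its interval was wholly CDS, 5090 bp from the nearest TSS. It ranked 1872 in replicate 1 and 3420 in replicate 2. The second lay in exon 2 of Socs36E (chr2L:18141555-18141958), an inhibitor of JAK/STAT signalling, at a signal of 140.6 and 14 bp from the CDS edge. Socs36E ranked 7504 in replicate 1 and 2383 in replicate 2, so replicate 2 carried it higher. Next was otp (chr2R:20884361-20884764), a homeodomain transcription factor, at 130.2 in exon 8, ranked 2763 and 4997 in replicates 1 and 2.

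The other 6 of the IDR list were in genes of varied roles. Kcmf1, whose mammalian counterpart is a ubiquitin ligase, had a signal of 126.9 and ranked 9959 in replicate 1 and 2403 in replicate 2. In eIF2Balpha, a subunit of the exchange factor for the translation initiation factor eIF2, the peak had a signal of 125.5 and ranked 2820 and 4305 in replicates 1 and 2. Then came the peak in CG6678 (123.9), ranked 3017 in replicate 1 and 6781 in replicate 2. The peak in CG10357 (121.8) ranked 5353 and 3158 in replicates 1 and 2, and that in CG31710 (118.8) ranked 4431 and 5565. Of these 6, some ranked higher in replicate 1 and some in replicate 2. The ninth lay in bin3, an RNA methyltransferase, at 113.2. It ranked 9598 in replicate 1 and 3629 in replicate 2. Of the 9, only the peak in Exn had an interval wholly in CDS. In the remaining 8, between 39.1% and 76.5% of the interval was coding, and 7 of them had a summit within 63 bp of the CDS edge.

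Below these, the next 16 peaks had signals between 78.4 and 102.1, and all 25 were overlapped by a peak in both replicate lists. Several lay in genes of membrane traffic and organelles, such as Pex13, a peroxisomal import factor (102.1), TSG101, a subunit of the ESCRT-I sorting complex (88.7), Ehbp1, a partner of endocytic traffic proteins (82.6), and Snx27, a sorting nexin (78.4). Metabolism and ion handling were represented by Scsalpha1, a subunit of succinyl-CoA synthetase in the citric acid cycle (88.0), Mco1, a multicopper oxidase (85.0), and Orai, the pore of the store-operated calcium channel (86.3). Others were klar, which links nuclei to microtubule motors (87.9), scrib, a cell polarity scaffold (80.6), and MTA1-like, a subunit of the NuRD chromatin remodelling complex (80.0). The rest were in CG10962 (94.3, the strongest on X), CG17028 (93.7), CG18765 (88.5), Est-Q (83.7), CG2121 (83.2) and CG8475 (80.0). These genes were named by rank and share no function that was tested. The peak in MTA1-like ranked most alike in the replicates, 7609 in replicate 1 and 7754 in replicate 2, and that in CG2121 ranked least alike, 18078 in replicate 1 and 5044 in replicate 2. An overlap can also be with a neighbour: the peak in Est-Q was 201 bp from an IDR summit that was not distal coding, and its overlapping peak in replicate 1 ranked 1197.

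**Figure D2:**
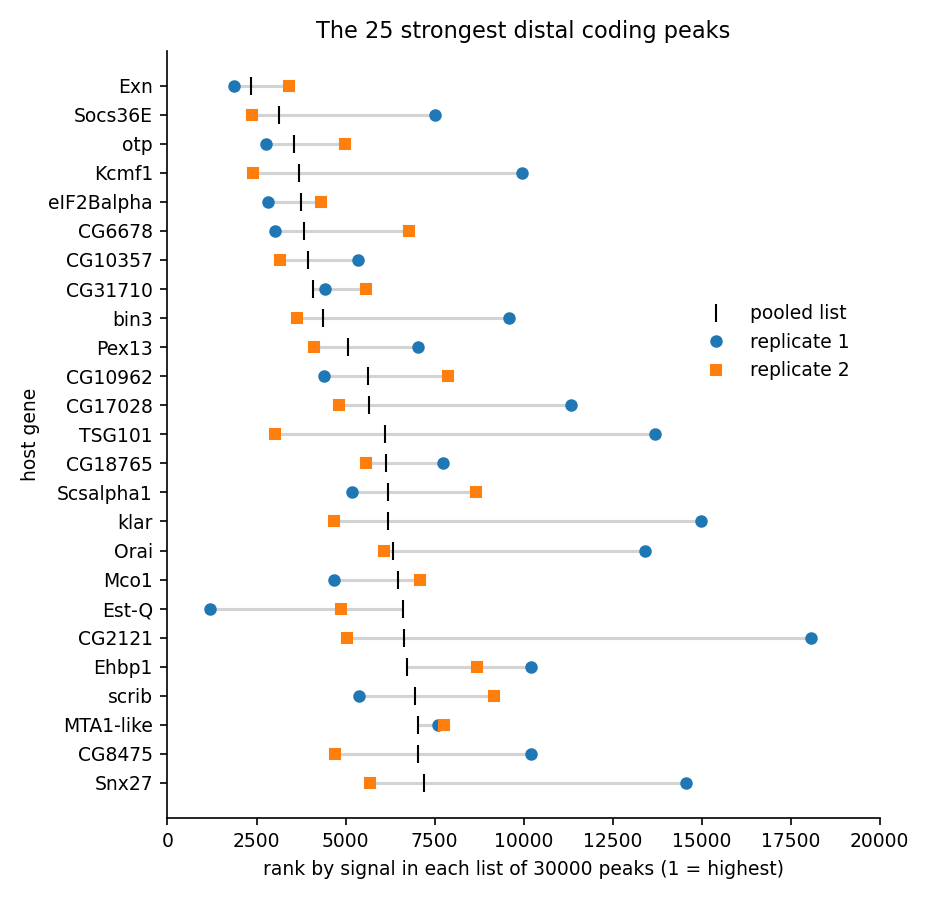
Rank by signal (x axis, 1 is highest, of 30000 peaks a list) of the 25 strongest distal coding peaks, named by the gene whose CDS holds the summit (y axis), in the pooled list (bar), replicate 1 (circle) and replicate 2 (square). The peak in MTA1-like has nearly the same rank in both replicates, while CG2121, TSG101, klar and Snx27 rank far lower in replicate 1.

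A smaller share of distal coding peaks than of other peaks was found in both replicate lists, which is a description over peaks with no test. A peak of each replicate overlapped 345 of the 1330 by at least 1 bp (25.9%, interval 23.6 to 28.4), against 68.8% of the other pooled peaks and 66.9% of all pooled peaks. The gap was larger in replicate 1, which overlapped 530 distal coding peaks (39.8%) against 79.4% of all pooled peaks. Replicate 2 overlapped 935 (70.3%) against 82.4% of all pooled peaks. Peaks seen in replicate 2 alone made up 44.4% of distal coding peaks and 14.1% of the others. Those seen in replicate 1 alone made up 13.9% and 12.5%. A further 210 distal coding peaks (15.8%) overlapped no peak of either replicate list, against 4.59% of the others.

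The gap was smaller between peaks of like signal. If distal coding peaks in each group of 3000 had been found in both replicates as often as the other peaks of that group, 39.9% would have been, compared with the 25.9% seen. In the strongest 3 groups all 35 distal coding peaks were in both, against 99.9%, 99.5% and 98.1% of other peaks. In the sixth group 45.1% (35.2 to 55.3) of distal coding peaks were in both against 66.8% of other peaks, and in the last group 7.67% (5.12 to 10.96) against 21.8%. Among the 100 strongest distal coding peaks 86 were in both. These reach into the fifth group, where 67.8% of distal coding peaks and 80.6% of other peaks were in both. For peaks in both lists the median difference in rank between replicates was 5400 for distal coding peaks and 2942 for the others. The largest rank gaps among the 100 strongest were in CG13085, ranked 4973 in replicate 1 with no overlapping peak in replicate 2, in the splicing factor gene B52 (5958 in replicate 1, none in replicate 2), and in CG4630 (7014 in replicate 2, none in replicate 1).

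**Figure D3:**
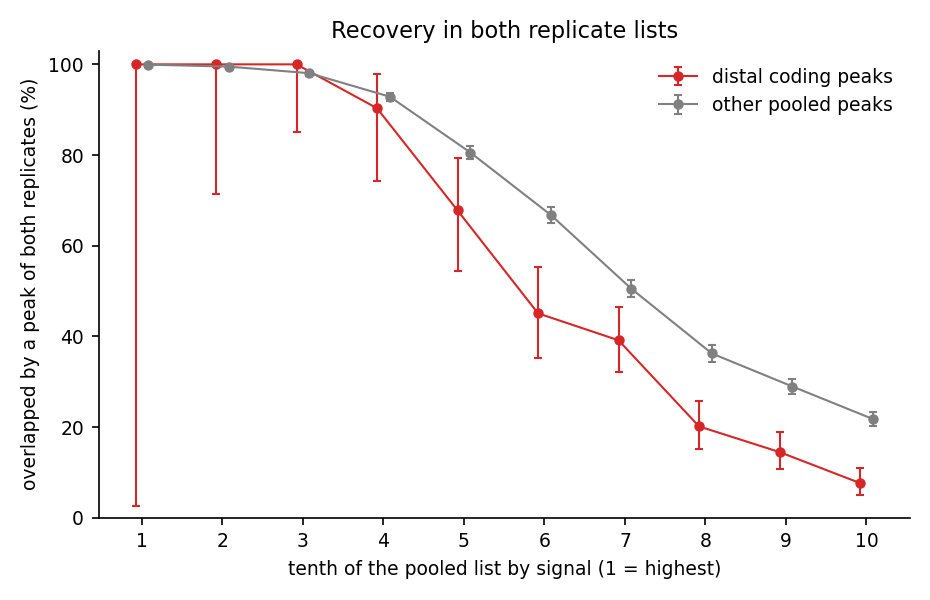
Share of peaks overlapped by a peak of both replicate lists (y axis, percent), for distal coding peaks and other pooled peaks in 10 groups of 3000 pooled peaks ordered by signal (x axis, 1 is highest), with 95% Clopper-Pearson bars. Both sets start at or near 100% and fall, and from the fourth group on distal coding peaks lie lower, ending at 7.67% against 21.8%. In the fourth group they are at 90.3% against 92.9%, and their bar includes the share of the other peaks.

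Within coding sequence, summits lay nearer to CDS edges than coding positions did. An edge is any end of a merged CDS segment, so start and stop codons within an exon count as well. The median distance to the nearest CDS edge was 107 bp in distal coding peaks and 171 bp over distal coding positions. Of distal coding peaks 28.5% (26.1 to 31.0) were within 50 bp of an edge, against 20.6% of positions. The replicate lists gave medians of 94 and 132 bp in replicates 1 and 2, and shares of 31.7% and 24.1%, so both were on the same side of the positions. An interval of the same width lay wholly in CDS for 32.8% of distal coding peaks and 45.2% of positions. Summits at interval midpoints place the centre coarsely, and the part of this in the result was not tested. Distal coding peaks were also closer to a TSS, at a median of 1437 bp against 1892 bp, with 30.5% against 23.7% at 501 to 1000 bp. Along the canonical coding sequence the median place was 56.7% from its start for 1281 peaks and 56.2% for positions, and the base was CDS in every transcript covering it for 88.6% of peaks and 91.2% of positions.

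Distal coding peaks also lay closer to the peaks of the IDR list. For the 1321 outside that list the median distance to an IDR summit was 4096 bp, against 8061 bp for distal coding positions. Within 1000 bp of an IDR summit lay 8.87% (7.399 to 10.53) of distal coding peaks and 4.62% of positions. That first share is 118 of 1330, and the 118 do not include the 9 IDR peaks themselves. Among the 1321 outside the IDR list it was 8.93%. The host gene had an IDR summit within 500 bp of a TSS for 44.5% (41.8 to 47.2) of distal coding peaks and 30.1% of positions. This share was 45.7% in replicate 1 and 43.6% in replicate 2. It was 50.4% (46.5 to 54.2) for the 665 stronger and 38.6% (34.9 to 42.5) for the 665 weaker distal coding peaks. No test was made of these differences, because peaks are not replicates.

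**Figure D4:**
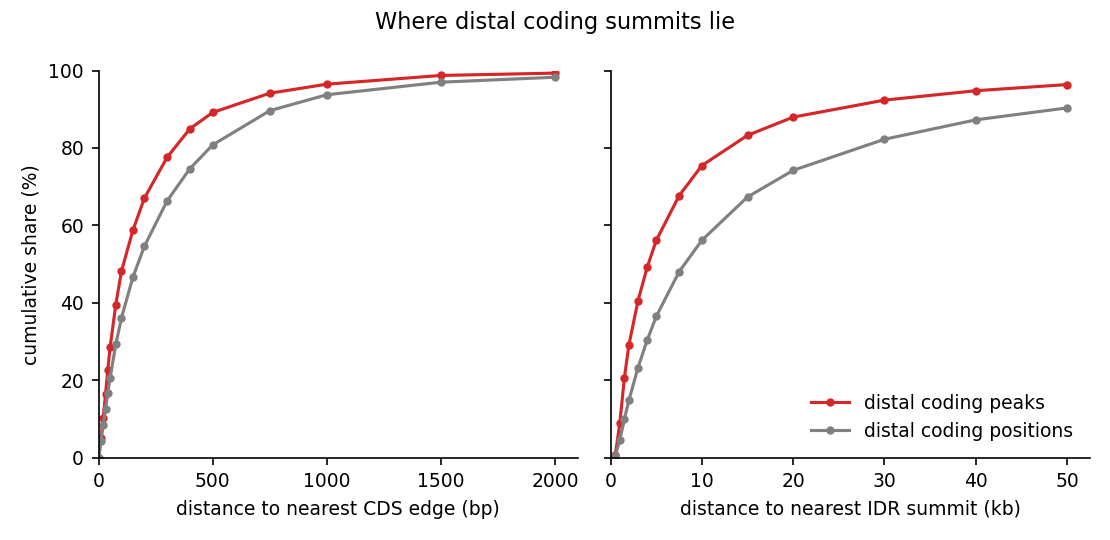
Cumulative share (y axis, percent) of distal coding peaks and of distal coding positions within a given distance of the nearest CDS edge (left, bp) and of the nearest IDR summit (right, kb). In both panels the curve of the peaks is above that of the positions, with medians of 107 against 171 bp on the left and 4096 against 8061 bp on the right.

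The X chromosome, of which males carry a single copy, held fewer distal coding peaks than its coding sequence would give. X had 134 of the 1330 (10.1%, interval 8.51 to 11.8), against 17.8% of distal coding bases, a ratio of 0.566 (exact two-sided binomial test, p = 3.94e-15). The ratio was 0.683 in replicate 1 (p = 5.42e-07, same exact test) and 0.482 in replicate 2 (p = 8.31e-33, same exact test), a mean of 0.583 ± 0.142 (SD, n = 2). The p-values for X likewise set peaks against bases, count overlapping intervals as separate peaks and do not measure variation between animals. Per Mb of distal coding sequence X had 41.0 peaks, and the autosomal arms had 74.5 (2L), 88.6 (2R), 73.5 (3L), 79.9 (3R) and 79.0 (4). X also held 15.1% of all pooled peaks. In males, copy number and chromosome cannot be told apart. Chromosome 4 had 20 distal coding peaks, which were 10.1% of its 198 pooled peaks, and the strongest was in mav, a TGF-beta ligand, at a signal of 48.4.

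Most host genes carried a single peak. Of 12260 genes with a distal coding base, 1161 (9.47%) held a distal coding peak, 1018 of them 1 peak, 120 had 2, 20 had 3 and 3 had 4. Genes with a peak had a median of 1655 distal coding bases, against 1008 in all such genes. The 3 genes with 4 peaks were CG9674, sgg, the glycogen synthase kinase 3 of flies, and larp, an RNA-binding protein. Signals were 24.0 to 43.3 in CG9674, 23.3 to 38.9 in sgg and 24.2 to 36.3 in larp. In CG9674 1 of the 4 peaks was in both replicates, and in sgg 2 were. The other pair of intervals in sgg overlaps and had no peak in either replicate list. In larp 2 peaks were in both replicates, and this pair of intervals overlaps and rests on the same replicate peaks, so it is 1 replicated place. Of genes with 3 peaks, scrib (28.6, 47.2 and 80.6) and gukh, a synaptic partner of the scaffold Dlg (48.6, 51.8 and 69.3), had the highest signal. Intervals of 1 gene can overlap, as do a pair in gukh that share the same replicate peaks. Merging overlapping intervals left 1282 places, of which 24.9% were in both replicates. In all, 96 distal coding peaks (7.22%) had another within 403 bp. Relative to length the densest of the genes with 3 or more peaks were B52, with 2.87 peaks per kb of distal coding sequence, and Gbs-70E, with 2.77. A pair of intervals in each of these genes overlaps and shares the same replicate peaks, so both densities count 1 place more than once.

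Host genes were read against 12 lists, each with the number of peaks that its share of distal coding bases would give. Metabolic enzymes held 12 distal coding peaks where 3.52 would be given by length. FASN1 and FASN2, both fatty acid synthases, had 3 peaks each, with highest signals of 43.5 and 34.0. Pepck1, an enzyme of gluconeogenesis, had 2 (up to 32.5), and ATPsynbeta (40.7), tobi (34.3), Lpin (30.2) and Mal-A1 (25.7) had 1 each. The list made up 0.902% of distal coding peaks and 0.265% of bases, and its share was 1.497% in replicate 1 and 0.772% in replicate 2. Of its 12 peaks 6 were in both replicates, beside 25.9% of all distal coding peaks, a difference that was not tested.

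Heat shock proteins and chaperones held 8 distal coding peaks where 1.68 would be given. Hsp83, the fly Hsp90, had 2 (42.8 and 31.6), the constitutive Hsc70-4 had 2 (33.9 and 27.2), the endoplasmic reticulum chaperone Hsc70-3 had 2 (28.4 and 23.2), and Hsp60A (29.9) and Hsp68 (23.9) had 1 each. The pair in Hsp83 overlaps and rests on the same replicate peaks, and so does the pair in Hsc70-4, so merging left 6 places where 1.62 would be given. Both merged places, 1 in each of these genes, were in both replicates, and the other 4 peaks were not. The list made up 0.602% of distal coding peaks, 0.468% in replicate 1 and 0.338% in replicate 2, against 0.126% of bases. Genes of the Hsp70 family resemble each other in sequence, and how reads that fit several copies were treated is not stated. Whether this affected the peaks in Hsc70-3, Hsc70-4 and Hsp68 was not tested. Ecdysone and stress transcription factors held 8 against 4.39, with 3 in the nuclear receptor gene Eip75B (up to 43.4), 2 each in Hr39 and sima, and 1 in Xbp1. A pair in Eip75B overlaps, and merging left 7 against 4.23.

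The other lists held fewer in the pooled list than their length would give. Sarcomere and muscle genes held 10 against 16.6, the highest in Msp300, a giant nesprin (36.9). Cytoskeleton and motors held 5 against 12.7 (shot, 30.3), extracellular matrix and adhesion 6 against 11.4 (kug, 36.3), and neuronal channels and synapse 3 against 8.88 (Shab, 29.4). Chromatin and Polycomb-Trithorax genes held 7 against 8.79 (Psc, 38.3), and RNA polymerase II and transcription genes 2 against 4.16, in the Mediator subunit gene skd (55.4) and in Taf1. Mucins and repeat-rich extracellular proteins held 1, in dpy (25.3), against 12.3. The lists of translation and ribosome genes (12 matched genes) and of Hox and homeobox genes (16 matched genes) held 0 against 1.31 and 1.91. Neither list contains eIF2Balpha or otp, whose peaks are named above, so the count of 0 covers the listed genes only. The direction turned in a single replicate list for 2 of the lists that held fewer peaks than by length. RNA polymerase II and transcription genes made up 0.482% of distal coding peaks in replicate 2 and 0.0935% in replicate 1, against 0.313% of bases. Hox and homeobox genes made up 0.187% in replicate 1 and 0.0482% in replicate 2, against 0.143% of bases. All of these counts are small, no list was tested, and the lists were drawn up with earlier results of these data known.

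**Figure D5:**
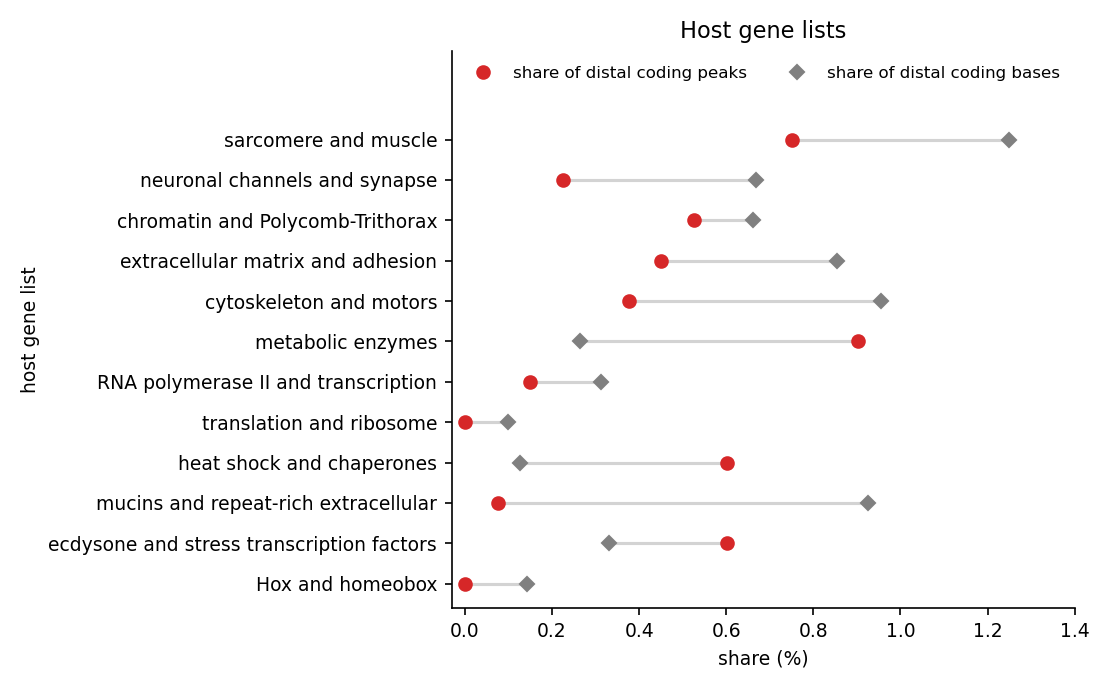
Share of distal coding peaks (circles) and of distal coding bases (diamonds) in 12 lists of host genes (x axis, percent; y axis, list). Circles lie right of diamonds for metabolic enzymes (0.902% against 0.265%), heat shock and chaperones (0.602% against 0.126%) and ecdysone and stress transcription factors, and left of them for the other 9 lists, of which RNA polymerase II and Hox lists turn in 1 replicate list each.

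At the lower end of the list the 3 weakest distal coding peaks, each at a signal of 23.2, were in B52, the axonemal dynein gene Dhc62B and Eip75B. The gene of the tagged protein itself, CG33017 (chr2R:16272114-16277655), has 4587 distal coding bases and held no summit in the pooled list, in either replicate list or in the IDR list.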

How the data were processed

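ChIP-seq peak lists on dm6 were used. Per the text deposited with the samples, the authors called peaks on each replicate and on the pooled replicates against a control alignment. For the aligner, the peak caller and the IDR cut-off, the sources used here give no name or value. The deposited signal of each peak is the authors' value and served only to rank or describe peaks within a list, and the deposited q-value is given as −log10. Summits were placed on Ensembl release 115 (BDGP6, 18164 genes, transposable elements left out) and the NCBI Release 6 sequence, whose arm lengths match dm6. Counts were set against bases by exact two-sided binomial tests, tested on simulated data. Intervals are 95% Clopper-Pearson and cover the counting of peaks only. Of 257 listed genes, 239 matched the annotation. Named were the hosts of the 25 strongest distal coding peaks, those of every distal coding peak that is in the IDR list, the 5 genes with most, the 3 largest rank gaps among the 100 strongest, the strongest per list and arm, the 3 weakest and CG33017. Other genes, named to illustrate a count, were chosen after their values were seen. Members and lists were chosen with earlier results of these data known. Python 3.11.15, numpy 2.4.6, pandas 2.3.3 and scipy 1.17.1 were used. Alternatives covered the TSS distance, summit, TSS set, CDS set, soft-masked peaks, window, overlap, signal and each replicate list alone.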

Additional observations from a re-analysis of the deposited data

How the results depend on the processing

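Of 45 alternative values, 41 stayed on the same side of their test or within the spread of the main value, 4 moved and 0 reversed. The midpoint in place of the summit gave the main values again. Every distal coding summit was already the midpoint of its interval, so these alternatives, which are among the 41, tested little. With 100 bp on each side of the summit in place of 50 bp, GC was 51.3% in place of 52.4%, and 34.4% in place of 17.1% of distal coding peaks held any of the 6 motifs. The longer window has more room for a match by construction. With an overlap of at least 50% of the pooled peak, 18.3% in place of 25.9% of distal coding peaks were found in both replicates. Among distal coding peaks above the median signal of the pooled list, 3.20% in place of 4.66% lay in a gene of the lists, and the cause was not tested. With 1 replicate list left out, the ratio of the share of summits to the share of bases ran from 0.260 to 0.504, the ratio on X from 0.482 to 0.683, and GC from 51.8% to 52.6%. Above the median signal the ratio to bases was 0.0607. With overlapping intervals merged, an alternative chosen after seeing the data, 24.9% were found in both replicates and 4.602% lay in a gene of the lists. No paired analysis was possible because the samples form 1 group.

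The main limits are the single group, with no untagged samples analysed here, the 2 replicates, whose separate origin beyond their numbers is not described, and the unknown read depth. Low peaks dominate the distal coding set, most of them with a q-value above 0.05, and the replicate lists differ most among low peaks.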
